A study of Mus musculus with 12 samples.

Results

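The nuclear genes for the subunits of the respiratory chain and of ATP synthase were followed in mouse embryonic fibroblasts with and without a knock-out of Itpr2. Members were taken by symbol, after the RefSeq mRNA accession of each probe had been matched to a gene. They are the Ndufa, Ndufb, Ndufc, Ndufs and Ndufv genes other than the Ndufaf assembly factors, the Uqcr genes, the Cox4i, Cox5, Cox6, Cox7 and Cox8 genes, the Atp5 genes, Sdha to Sdhd, Cyc1 and Cycs. This gave 87 genes with 118 probes. Of these, 84 genes entered the tests among 19507 genes and unnamed transcripts, and each was well above background on all 12 arrays. The members tested were 36 subunits of complex I, 4 of complex II, 9 of complex III with Cyc1, 15 of complex IV, cytochrome c, 17 of ATP synthase, and the pair Ndufa4 and Ndufa4l2. Ndufa4 was first counted with complex I and is now placed with complex IV, so the pair was kept apart. The 3 members not tested, Cox7b2, Cox8b and Cox8c, are complex IV isoforms known from testis or striated muscle, and each was well above background on 0 of 12 arrays.

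The respiratory chain sits in the inner mitochondrial membrane, where complexes I and II pass electrons from NADH and succinate to ubiquinone, complex III passes them to cytochrome c, and complex IV passes them to oxygen. Complexes I, III and IV pump protons, and ATP synthase uses the gradient to make ATP. A few core subunits are encoded by mitochondrial DNA, all others by nuclear genes, and several complex IV subunits come in a widely used form and a form known from muscle, lung or testis.

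The series compared knock-out (KO) and wild-type (WT) fibroblasts at late and early passage on one-colour Agilent arrays, with 3 arrays in each of 4 groups. Itpr2 encodes an inositol trisphosphate receptor, through which calcium leaves the endoplasmic reticulum. The groups were Itpr2 KO after 5 passages (late), Itpr2 KO after 3 passages (early), WT after 5 passages and WT after 3 passages. All cells were primary cultures from E12.5 embryos, grown in the same medium. The series names 3 independent sources for each genotype. The strain, the design of the deletion and whether the late and early cultures of a number were the same culture are not given in the sources used here.

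The scanner counted 59.1% to 67.5% of 39429 probes on an array as well above background, and replicates of a group correlated at 0.985 to 0.997. The Itpr2 probe was not lower in KO than in WT arrays, at 1.76 ± 0.058 in late KO, 1.35 ± 0.23 in early KO, 1.61 ± 0.11 in late WT and 0.95 ± 0.28 in early WT (log2 level, SD, n = 3 each). Where this probe lies relative to the deletion is not given, so it does not check the labels. Xist, the transcript of the inactive X chromosome, was well above background on 4 arrays, namely replicates 1 and 2 of late KO, replicate 1 of late WT and replicate 1 of early WT, and on 0 of the 3 early KO arrays. Ddx3y, a transcript of the Y chromosome, was well above background on 9 arrays, among them all 3 early KO arrays, at 0.76, 0.76 and 0.82. Late KO replicate 2 was not above background, at -7.56. Late KO replicate 1 was above background for both, with Xist at -1.09 and Ddx3y at -0.14. The arrays labelled late KO replicates 1 and 2 thus differ from every early KO array in sex-linked transcripts. On these arrays, passage in KO and this difference cannot be told apart. The member counts and medians of each comparison that uses late KO arrays, by complex for passage in KO, are also given without them. All 12 fibroblast markers on the list used here were measured, but some differed between groups. At a limma adjusted p under 0.05, 3 were lower with passage in KO and 2 with passage in WT, against 9% and 4.37% of all genes. Between late KO and late WT, 1 was higher and 2 were lower, against 3.46% and 4.37% of all genes. All 12 macrophage markers had positive differences with passage in WT, with a median of 1. Of these, 1 was called higher, against 6.22% of all genes. In 1 marker the late WT arrays lay above all early WT arrays, against 13.9% of all genes.

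A level below is the log2 intensity of a gene's probe minus the log2 of the 75th percentile of its array, so that 0 stands for that percentile. Levels of different genes come from different probes and are not compared with each other. A difference is a difference of group means on this log2 scale, with its standard error (SE) from limma, fitted to all 12 arrays, and p-values were adjusted by the Benjamini-Hochberg method over all 19507 genes. A gene is called changed at an adjusted p under 0.05. The comparisons share groups, since late KO arrays serve in both the KO passage comparison and the late genotype comparison, and values of different comparisons are set side by side without a test of their likeness. With 3 arrays per group, the number of arrays limits the precision.

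Promoters are shown for 4 members that stand for different outcomes with passage in KO cells. They are Cox6a1 and Uqcr11, which were called lower, Sdha, which was not called, and Cox7a1, which had the largest called fall in that comparison. The members were picked after motif matches and differences had been seen. Each run is the 250 bases before the RefSeq start of the gene on GRCm38.p6, 5′ to 3′ on the strand of the gene, with motif matches in capitals. Cox6a1 lies at chr5:115348959-115349208 (minus strand), Uqcr11 at chr10:80406822-80407071 (minus strand), Sdha at chr13:74350241-74350490 (minus strand) and Cox7a1 at chr7:30183921-30184170 (plus strand).
Cox6a1: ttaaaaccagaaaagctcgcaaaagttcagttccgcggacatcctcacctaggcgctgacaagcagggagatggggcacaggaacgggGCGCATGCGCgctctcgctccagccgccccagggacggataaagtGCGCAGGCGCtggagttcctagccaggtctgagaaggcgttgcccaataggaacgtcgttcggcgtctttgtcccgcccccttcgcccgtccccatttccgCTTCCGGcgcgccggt
Uqcr11: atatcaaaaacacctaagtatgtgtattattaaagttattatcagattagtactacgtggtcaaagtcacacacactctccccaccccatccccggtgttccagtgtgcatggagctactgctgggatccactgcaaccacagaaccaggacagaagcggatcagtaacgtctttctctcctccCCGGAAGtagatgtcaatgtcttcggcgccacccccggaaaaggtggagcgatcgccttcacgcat
Sdha: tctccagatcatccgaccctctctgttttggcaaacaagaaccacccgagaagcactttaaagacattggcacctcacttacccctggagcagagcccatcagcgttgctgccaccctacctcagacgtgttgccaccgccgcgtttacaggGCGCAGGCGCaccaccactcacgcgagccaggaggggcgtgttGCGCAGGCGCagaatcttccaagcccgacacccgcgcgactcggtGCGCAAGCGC
Cox7a1: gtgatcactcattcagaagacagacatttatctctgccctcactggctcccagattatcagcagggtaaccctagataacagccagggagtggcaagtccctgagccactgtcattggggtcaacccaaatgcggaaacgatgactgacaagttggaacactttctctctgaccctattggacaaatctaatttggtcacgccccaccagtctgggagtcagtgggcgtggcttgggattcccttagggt

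Across the RefSeq table, 68 of the members tested had 73 windows of 300 bases, which add 50 bases after the start to the 250 before it. They were searched for 4 motifs, 3 of them on both strands. GCGCA, 1 base of any kind and then GCGC, a site of NRF1, a transcription factor of nuclear genes for mitochondrial proteins, was in 24.7% of the members' windows and in 4.6% of all 32851 windows. CCGGAAG, a site of ETS factors such as GABPA, was in 23.3% of the members' windows and in 8.86% of all windows. AAGATGGC, a site of YY1, was in 13.7% of the members' windows and in 2.75% of all windows. TATAAA, the TATA box, searched on the strand of the gene only, was in 2.74% of the members' windows and in 8.32% of all windows. In the printed runs, Cox6a1 holds 2 NRF1 matches and 1 ETS match, Uqcr11 holds 1 ETS match, Sdha holds 3 NRF1 matches and Cox7a1 holds 0 matches. Among members called lower with passage in KO, 10 of 40 windows held the NRF1 motif and 13 the ETS motif. Among members not called there, 8 of 33 windows held the NRF1 motif and 4 the ETS motif. These shares were not tested, and a match is a run of letters, not a measured binding site.

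In KO fibroblasts the respiratory chain genes were lower at late than at early passage across all complexes. Of 84 members, 49 were called lower and 0 higher, against 9% of all genes called lower, 9.95% called higher and 18.9% called in either direction. All 84 differences were negative, as were 55.8% of those of all genes, and their median was -0.36, against -0.047 over all genes tested. All genes were not matched to the members for the brightness of their probes. Some bright genes outside the chain also had lower means, with late and early KO means of 7.18 and 7.52 for Gapdh and 4.5 and 4.9 for Pkm. Neither Gapdh nor Pkm was called with passage in KO. Vim also had a lower mean, at 6.42 against 6.7. Fn1 and Pgk1 fell less, at 7.35 against 7.46 and 5.02 against 5.05, and Col3a1 rose, at 6.67 against 6.34. Whether bright probes share part of the members' fall was not tested. At an unadjusted p under 0.05, 72 members were lower and 0 higher, against 18% of all genes lower, 15.8% higher and 33.8% in either direction. In 78 members every late KO array lay below every early KO array, a pattern found in 29.3% of all genes in this direction, in 22.6% in the other and in 51.9% in either. A lower level per RNA in a bulk culture can come from fewer cells of a type or from less RNA per cell, and these cannot be told apart. Relative to its own mean over the 12 arrays, the median member stood at -0.207, -0.21 and -0.151 on the late KO arrays and at 0.305, 0.142 and 0.0419 on the early KO arrays. The late WT arrays stood at -0.0182, -0.0659 and -0.0657 and the early WT arrays at 0.0679, 0.136 and 0.04. The 3 late KO arrays were thus the lowest of the 12, and early KO replicate 1 was the highest.

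**Figure D1:**
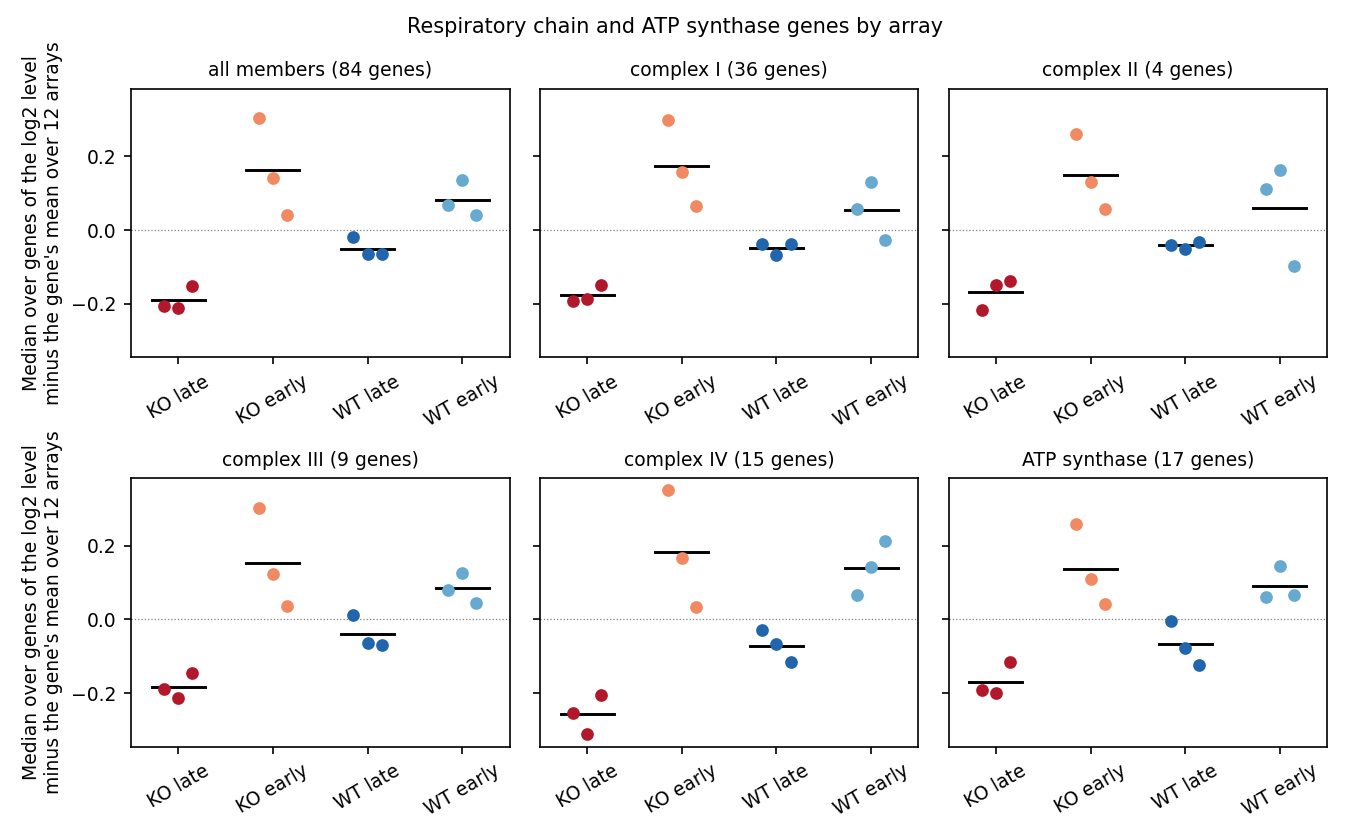
Median over the genes of each complex of the log2 level minus the gene's own mean over 12 arrays (y axis), for each array in the groups KO late, KO early, WT late and WT early (x axis). Points are single arrays and bars are means of 3 arrays. For all members, the late KO arrays lie between -0.21 and -0.151, below all other arrays.

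The size of the KO passage count varied with single arrays and with the normalization. It was 16 without late KO replicate 1, 19 without late KO replicate 2, 25 without late KO replicate 3, 18 without early KO replicate 1 and 23 without early KO replicate 2, and 57 without early KO replicate 3. In the same order, 9.12%, 10.4%, 11.3%, 10.1%, 10.6% and 19.9% of all genes were called, against 18.9% with all arrays. With late KO replicates 1 and 2 both left out, the median difference was -0.33 and 0 members were called, of 165 genes called in all, with the lone late KO array assumed to vary like the other groups. The medians by complex were then -0.33 for complex I, -0.29 for complex II, -0.27 for complex III, -0.41 for complex IV and -0.27 for ATP synthase, with 0 called in each. Under quantile normalization 28 members were called, beside 17.2% of all genes, and the median was -0.22. Under normexp background correction with the background as deposited, a setting that compressed the values of some arrays, 0 were called and the median was 0.32, with 44 of the called members changing sign.

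Complex I, which oxidises NADH, had 21 of 36 subunits called lower with passage in KO cells and a median difference of -0.36. Ndufv3, a small subunit of the NADH-oxidising tip, had levels of 4.69, 4.69 and 4.78 on late KO arrays and 5.24, 5.15 and 5.17 on early KO arrays. The late WT levels were 4.90, 4.92 and 4.98 and the early WT levels 5.07, 5.09 and 4.90. The KO groups did not overlap, the WT groups did, and the KO difference was -0.46 ± 0.078 (SE, limma adjusted p = 0.0041). Ndufab1, the mitochondrial acyl carrier protein, had the most negative difference of the complex. Its levels were 0.04, 0.00 and 0.19 on late KO arrays and 0.86, 0.67 and 0.37 on early KO arrays, a difference of -0.56 ± 0.14 (limma adjusted p = 0.025). Ndufb7, a subunit of the membrane arm, followed with -0.55 ± 0.11 (limma adjusted p = 0.0071). Ndufc1, another small membrane subunit, differed by -0.41 ± 0.078 (limma adjusted p = 0.0069). Ndufa6, an accessory subunit, was close to 0, at -0.08 (limma adjusted p = 0.56). The other accessory subunits called lower were Ndufa2, Ndufa3, Ndufa5, Ndufa9, Ndufa11, Ndufa12, Ndufb2, Ndufb4, Ndufb6, Ndufb8, Ndufb9, Ndufb10, Ndufs4, Ndufs5 and Ndufs6, with differences between -0.50 for Ndufb8 and -0.34 for Ndufa9.

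Among the subunits of complex I, the conserved catalytic core and the accessory subunits were also counted apart, a split made after the values had been seen and so given with no test. Of 7 nuclear core subunits, 2 were called lower with passage in KO, Ndufs8 at -0.36 and Ndufv2 at -0.32, and the median was -0.24. Of the 29 others, 19 were called lower, with a median of -0.37. In complex III, 0 of the 4 core proteins Uqcrc1, Uqcrc2, Cyc1 and Uqcrfs1 were called, with differences between -0.31 and -0.21. All 5 small subunits of complex III were called lower, with differences between -0.61 and -0.31. In ATP synthase, 1 of 5 subunits of the F1 head was called, Atp5e, against 5 of 12 other subunits.

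Complex III, which hands electrons to cytochrome c, had 5 of 9 subunits called lower and a median of -0.31. Uqcr11, a small accessory subunit, had levels of 4.53, 4.56 and 4.62 on late KO arrays and 5.39, 5.18 and 4.98 on early KO arrays. In WT the levels were 4.99, 4.87 and 4.87 late and 4.98, 5.17 and 5.12 early. The late KO arrays were the lowest of all 12, and the KO difference was -0.61 ± 0.11 (limma adjusted p = 0.0048), a level 1.53 times lower. Uqcr10 differed by -0.47 and Uqcrq, another small subunit, by -0.51 (limma adjusted p = 0.0066 and 0.011). Uqcrh, the hinge protein, and Uqcrb were called at -0.31 and -0.34. The Rieske iron-sulfur protein Uqcrfs1 was at -0.21 (limma adjusted p = 0.26) and cytochrome c1, Cyc1, at -0.24 (limma adjusted p = 0.17).

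Complex II, which is also succinate dehydrogenase of the citric acid cycle, had its 4 subunits split. The iron-sulfur subunit Sdhb, at -0.39 ± 0.095, and the membrane anchor Sdhc, at -0.41 ± 0.08, were called lower with passage in KO (limma adjusted p = 0.018 and 0.0075). The catalytic flavoprotein Sdha had levels of 3.34, 3.38 and 3.28 on late KO arrays and 3.47, 3.46 and 3.43 on early KO arrays. Its groups did not overlap, but the difference of -0.12 ± 0.095 was not called (limma adjusted p = 0.39). Sdhd, the other anchor, was at -0.26 (limma adjusted p = 0.13).

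Cytochrome c, encoded by Cycs, carries electrons from complex III to complex IV. Its levels were 3.91, 3.86 and 3.96 on late KO arrays, 4.68, 4.34 and 4.18 on early KO arrays, 4.41, 4.23 and 4.31 on late WT arrays and 4.33, 4.37 and 4.31 on early WT arrays. The late KO arrays lay below the other 9 arrays, and the early KO arrays were the most spread. The passage difference was -0.49 ± 0.12 in KO (limma adjusted p = 0.017) and -0.02 ± 0.12 in WT (limma adjusted p = 0.93).

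Complex IV, cytochrome c oxidase, had the highest share called lower in KO of the complexes with more than 4 subunits tested, 13 of 15, and a median of -0.45. Cox5a and Cox6c were called at -0.45 and -0.49. The exceptions were Cox7b at -0.29 and Cox7c at -0.27 (limma adjusted p = 0.087 and 0.091). Cox5b, a zinc-binding subunit, had levels of 4.36, 4.31 and 4.46 on late KO arrays and 5.02, 4.91 and 4.83 on early KO arrays. Late WT arrays were at 4.61, 4.46 and 4.66 and early WT arrays at 4.74, 4.76 and 4.94. In both genotypes the passages did not overlap, and the difference was called in KO, at -0.54 ± 0.094 (limma adjusted p = 0.0046), and not in WT, at -0.24 ± 0.094 (limma adjusted p = 0.13). The widely used forms of the paired subunits were called lower in KO, Cox4i1 at -0.36, Cox6a1 at -0.39, Cox6b1 at -0.44, Cox7a2 at -0.41 and Cox8a at -0.49. Cox7a2l, which helps join complexes III and IV, was called at -0.32. Ndufa4, the subunit moved from complex I to complex IV, differed by -0.61 ± 0.14 in KO (limma adjusted p = 0.015) and by -0.02 ± 0.14 in WT (limma adjusted p = 0.94).

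ATP synthase had 6 of 17 subunits called lower in KO and a median of -0.30. Atp5k, subunit e at the dimer interface, had levels of 4.31, 4.25 and 4.34 on late KO arrays and 5.04, 4.80 and 4.64 on early KO arrays, with no overlap and a difference of -0.53 ± 0.098 (limma adjusted p = 0.0063). Atp5o, the stalk subunit known as OSCP, was called at -0.39, and Atp5h, subunit d of the stalk, at -0.38. Atp5md and Atp5mpl, small membrane subunits, were called at -0.35 and -0.37. The catalytic subunit Atp5b was at -0.24 and its partner Atp5a1 at -0.20 (limma adjusted p = 0.12 and 0.1). The 3 genes for the c-ring, which encode one mature protein, were at -0.42 for Atp5g1, -0.21 for Atp5g2 and -0.30 for Atp5g3, and none was called (limma adjusted p = 0.05, 0.067 and 0.077).

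**Figure D2:**
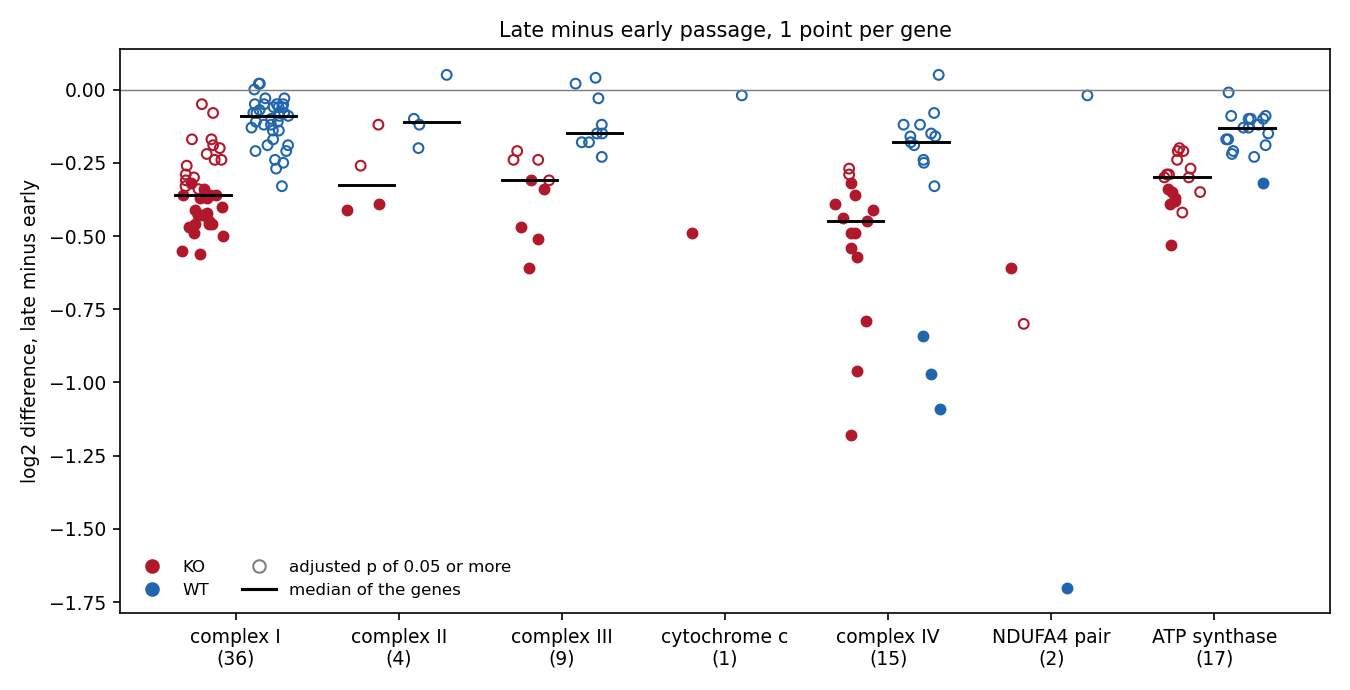
Late minus early passage on the log2 scale (y axis) for each gene by complex (x axis, genes tested in brackets), in KO (left of each pair, red) and WT (right, blue). Filled points passed an adjusted p under 0.05 and bars are medians of complexes with more than 2 genes. In KO all 84 points lie below 0, with a complex IV median of -0.45, against -0.18 in WT.

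In WT fibroblasts 5 of the 84 members were called lower at late passage and 0 higher, against 4.37% of all genes called lower, 6.22% called higher and 10.6% called in either direction. The share of members called, 5.95%, all of them lower, was close to the 4.37% of all genes called lower and below the 10.6% called in either direction. The median difference was -0.12, against -0.0043 over all genes, and 78 of 84 differences were negative, against 50.6% of those of all genes. At an unadjusted p under 0.05, 13 members were lower and 0 higher, against 13.4% of all genes lower, 15% higher and 28.4% in either direction. In 26 members the late WT arrays lay below all early WT arrays, which was so for 13.8% of all genes in this direction, and in 0 members they lay above, against 13.9% of all genes, with 27.7% in either direction. Of the called genes, 3 were complex IV isoforms with restricted expression in tissues, 1 was Ndufa4l2 and 1 was Atp5e. By complex, the count was 0 of 36 in complex I, 0 of 4 in complex II, 0 of 9 in complex III, 3 of 15 in complex IV and 1 of 17 in ATP synthase.

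Cox6a2, the heart and skeletal muscle form of subunit VIa, had levels of -1.98, -1.93 and -2.14 on late KO arrays and -1.04, -0.98 and -1.15 on early KO arrays. Its WT levels were -2.84, -1.99 and -1.94 late and -1.36, -1.29 and -0.85 early. Late arrays lay below early arrays in both genotypes, by -0.96 ± 0.22 in KO and -1.09 ± 0.22 in WT (limma adjusted p = 0.015 in each). Cox4i2, the form of subunit IV known from lung, had levels of -3.36, -3.47 and -3.46 on late KO arrays, -2.98, -2.90 and -2.68 on early KO arrays, -3.56, -3.40 and -3.33 on late WT arrays and -2.50, -3.00 and -2.27 on early WT arrays. It was called in both genotypes, at -0.57 ± 0.17 in KO and -0.84 ± 0.17 in WT (limma adjusted p = 0.038 and 0.014). The KO call of Cox4i2 was lost when any 1 late or early KO array was left out. That of Cox6a2 was lost without early KO replicate 1 or 2 or late KO replicate 3. Cox6b2, the testis form of subunit VIb, had levels of 0.62, 0.60 and 0.64 on late KO arrays and 1.22, 1.41 and 1.61 on early KO arrays. In WT its levels were 0.37, 0.82 and 0.75 late and 1.72, 1.33 and 1.81 early. Again the passages did not overlap in either genotype, with differences of -0.79 ± 0.16 in KO and -0.97 ± 0.16 in WT (limma adjusted p = 0.0084 and 0.0069).

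Ndufa4l2, a relative of Ndufa4 that is induced by low oxygen, had levels of -4.30, -4.50 and -4.12 on late KO arrays, -4.81, -3.09 and -2.62 on early KO arrays, -5.17, -5.25 and -4.96 on late WT arrays and -3.62, -3.36 and -3.30 on early WT arrays. The WT passages were far apart, at -1.70 ± 0.43 (limma adjusted p = 0.035). The KO passages overlapped, with early KO replicate 1 below all late KO arrays, and the KO difference of -0.80 ± 0.43 was not called (limma adjusted p = 0.22). Atp5e, the epsilon subunit of the F1 head, had levels of 5.35, 5.47 and 5.28 on late KO arrays and 5.72, 5.69 and 5.70 on early KO arrays. It had 5.35, 5.37 and 5.28 on late WT arrays and 5.65, 5.76 and 5.55 on early WT arrays, so passage separated the arrays in both genotypes. The differences were -0.34 ± 0.081 in KO and -0.32 ± 0.081 in WT (limma adjusted p = 0.017 and 0.035). The WT count was 3 without late WT replicate 1, 2 or 3 or early WT replicate 2, and 1 when the 2 WT groups were fitted alone. In the same order, 5.98%, 6.31%, 8.1%, 6.65% and 2.87% of all genes were called, against 10.6% in the main fit.

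Cox7a1, the heart and skeletal muscle form of subunit VIIa, showed the largest called difference with passage in KO of any member. Its levels were -2.79, -2.74 and -2.76 on late KO arrays and -1.52, -1.63 and -1.60 on early KO arrays. In WT they were -2.36, -1.97 and -1.84 late and -1.42, -1.83 and -1.93 early. All late KO arrays were lower than the other 9 arrays, while the WT passages overlapped. The passage difference was -1.18 ± 0.15 in KO, a level 2.26 times lower (limma adjusted p = 0.0014), and -0.33 ± 0.15 in WT (limma adjusted p = 0.19).

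Some markers of striated muscle were called lower in the same comparisons. Of 12 skeletal and cardiac muscle markers, 7 were measured, and Myod1, Myog and Ckm were above background on 0 arrays. With passage in KO, 4 of the 7 were called lower, Des at -4.33, Actc1 at -3.94, Tnnt2 at -3.41 and Tnnc1 at -0.40, against the 9% of all genes called lower there. With passage in WT 2 of the 7 were called lower, Des at -1.91 and Actc1 at -2.98, against 4.37% of all genes, while 3 of the 7 differences were positive, among them Mylpf at 0.68 and Tnnc1 at 0.29, neither of them called (limma adjusted p = 0.17 and 0.15). Without late KO replicates 1 and 2, 2 of the 7 were called lower with passage in KO. The summed level of the list, where 1 is the 75th percentile of an array, ranged from 7.87 to 9.17 on late KO arrays, 8.12 to 11.8 on early KO arrays, 10.7 to 15.9 on late WT arrays and 9.42 to 15.6 on early WT arrays. This sum mostly follows Acta1, the only marker of the list with group means above 0. Its means were 2.99 in late KO, 3.17 in early KO, 3.61 in late WT and 3.53 in early WT, and it was not called with passage. The part of the muscle markers in the differences of Cox7a1 and Cox6a2 was not tested.

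**Figure D3:**
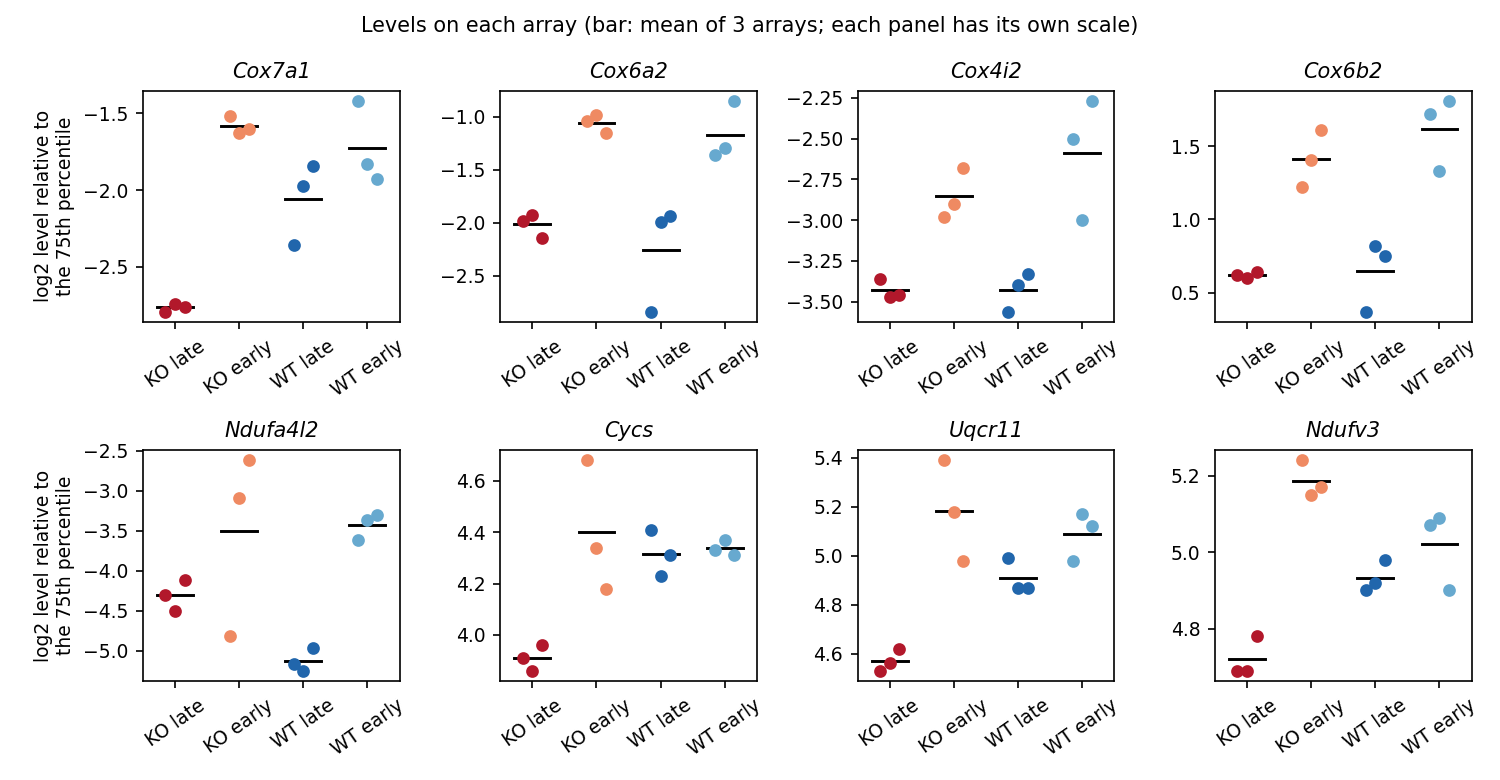
Log2 level relative to the 75th percentile of the array (y axis, own scale in each panel) for 8 genes on each array of KO late, KO early, WT late and WT early (x axis). Points are arrays and bars are means of 3. Cox7a1 lies between -2.79 and -2.74 on late KO arrays, while Cox6a2, Cox4i2 and Cox6b2 are low on late arrays of both genotypes.

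At late passage, KO against WT, 2 of 84 members were called lower and 0 higher, against 4.37% of all genes called lower, 3.46% called higher and 7.83% called in either direction. The share of members called, 2.38%, was below that background. The members leaned to lower levels in KO all the same, with 75 of 84 differences negative, against 51.3% of those of all genes, and a median of -0.14, against -0.0081 over all genes. In 44 members the late KO arrays lay below all late WT arrays, against 20.3% of all genes in this direction, and in 2 members they lay above, against 19% of all genes, with 39.3% in either direction. At an unadjusted p under 0.05, 15 members were lower and 0 higher, or 17.9%, against 14.1% of all genes lower, 10.8% higher and 24.9% in either direction. Cox7a1 was called at -0.71 ± 0.15 (limma adjusted p = 0.025), from the levels given above. Ndufa11, a membrane subunit of complex I, had levels of 2.17, 2.13 and 2.20 on late KO arrays and 2.47, 2.39 and 2.53 on late WT arrays. These do not overlap, and the difference was -0.29 ± 0.077 (limma adjusted p = 0.045). Cycs, at -0.41 ± 0.12, missed the threshold (limma adjusted p = 0.062), as did Cox6b1 at -0.37 (limma adjusted p = 0.053), Ndufb7 at -0.37 (limma adjusted p = 0.059) and Ndufb6 at -0.38 (limma adjusted p = 0.09).

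By complex, the medians of late KO minus late WT were -0.12 for complex I, -0.13 for complex II, -0.19 for complex III, -0.18 for complex IV and -0.13 for ATP synthase. Differences ran the other way for Ndufb11 at 0.20 (limma adjusted p = 0.27) and for Ndufa4l2 at 0.82 ± 0.43 (limma adjusted p = 0.28), and in both the late KO arrays lay above all late WT arrays. In complex III the most negative was Uqcr11 at -0.34 (limma adjusted p = 0.078) and in ATP synthase Atp5d, the delta subunit, at -0.26 (limma adjusted p = 0.28). Neither called member held when single arrays were left out. With 1 array left out, 1.31% to 5.91% of all genes were called, against 7.83% with all arrays. The count of members was 1 without late WT replicate 1, and 0 without late WT replicate 2 or 3 or late KO replicate 1, 2 or 3. It was also 0 with late KO replicates 1 and 2 both left out, where the median difference was -0.097. Markers of other cell types also differed between the same groups. Of 8 cartilage markers, 5 were called higher in KO and all 8 differences were positive, with a median of 1.7. Their summed level was 37.3 to 50.6 on late KO arrays against 30 to 35.4 on late WT arrays. It was 33.9 to 48.1 on early KO arrays and 27.1 to 86.3 on early WT arrays. Col2a1, the marker of highest signal in this sum, had means of 4.77 in late KO and 4.67 in late WT. Of these 8, 3 were also called higher with passage in KO, against 9.95% of all genes. Of 12 macrophage markers, 2 were called lower in KO, with a summed level of 27.5 to 59.4 on late KO arrays against 68.1 to 121 on late WT arrays. Of 7 skeletal and cardiac muscle markers, 3 were called lower. The counts between late KO and late WT stand beside 3.46% of all genes called higher and 4.37% called lower. The medians of these lists were 1.7, -1.2 and -0.62. Without late KO replicates 1 and 2, which leaves 1 late KO array, they were 1.8, -1.9 and -0.63. The part of these markers in the members' differences was not tested.

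At early passage, KO against WT, 0 of 84 members were called, against 0.0359% of all genes, and 1 member, Ndufa4, had an unadjusted p under 0.05 and was higher in KO, against 3.07% of all genes higher and 5.99% in either direction. Ndufa4 levels were 4.74, 4.53 and 4.25 on early KO arrays and 4.30, 4.28 and 3.97 on early WT arrays, which overlap, and the difference was 0.32 ± 0.14 (limma adjusted p = 0.74). Most differences were small and positive, 71 of 84, while 46.5% of those of all genes were negative, with a median of 0.095 against 0.017 over all genes. They rested largely on early KO replicate 1. Paired by slide, which carries 1 array of each group, the median member differed by 0.25 on slide 1, 0.013 on slide 2 and 0.045 on slide 3, and without early KO replicate 1 the median was 0.031. In 4 members the early KO arrays lay above all early WT arrays, or 4.76%, against 5.24% of all genes in this direction and 9.54% in either. The most positive and most negative values by complex outside complex I were Uqcrb at 0.15 and Uqcrc1 at -0.18, Cox6c at 0.23 and Cox4i2 at -0.27, and Atp5h at 0.19 and Atp5d at -0.19, and the most positive of complex I was Ndufb9 at 0.24.

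**Figure D4:**
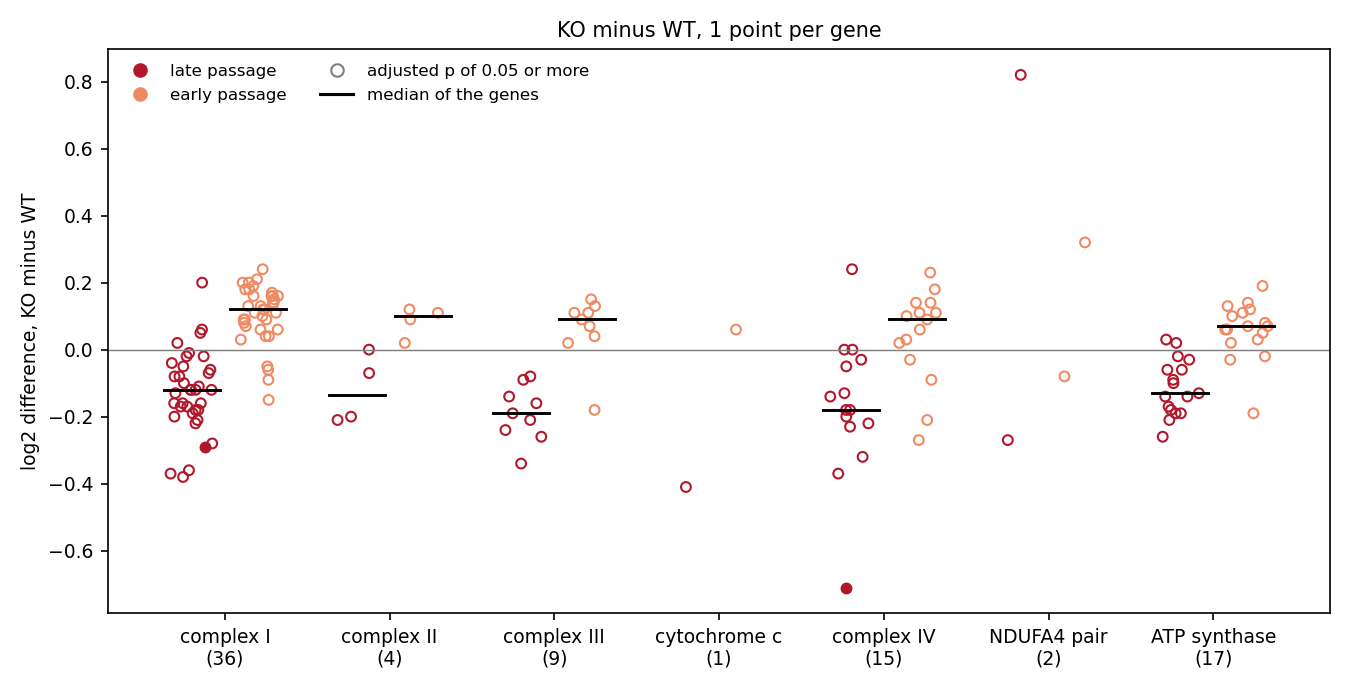
KO minus WT on the log2 scale (y axis) for each gene by complex (x axis, genes tested in brackets), at late passage (left of each pair, dark) and early passage (right, light). Filled points passed an adjusted p under 0.05, which were Cox7a1 at -0.71 and Ndufa11 at -0.29 at late passage. The all-member median was -0.14 at late and 0.095 at early passage.

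The difference between the passage responses of KO and WT was tested directly, and 0 of 84 members were called, against 0.0871% of all genes, or 17 genes. The larger number of calls in KO than in WT is therefore not shown to be a difference between the genotypes gene by gene. The median of the members was -0.23, against -0.025 over all genes, and 78 of 84 values were negative, against 53.4% of those of all genes. At an unadjusted p under 0.05, 20 members had a more negative response in KO and 0 a less negative one, or 23.8%, against 8.14% of all genes in this direction, 5.77% in the other and 13.9% in either. The most negative values were Cox7a1 at -0.85 ± 0.22 (limma adjusted p = 0.17), Ndufa4 at -0.59 (limma adjusted p = 0.26), Ndufb6 at -0.51 (limma adjusted p = 0.27) and Ndufab1 at -0.50 (limma adjusted p = 0.32). The 95% interval for Cycs was -0.84 to -0.10 around -0.47 and for Sdha it included 0, at a value of -0.03. The isoforms with restricted expression in tissues other than Cox7a1 had values above 0, with Ndufa4l2 at 0.90, Cox4i2 at 0.27, Cox6b2 at 0.18 and Cox6a2 at 0.13 (limma adjusted p = 0.53, 0.63, 0.75 and 0.88). Without late KO replicates 1 and 2 the median was -0.19 and 0 members were called. By slide, the median over all members was -0.43, -0.15 and -0.09, the largest on the slide of early KO replicate 1.

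Genes that serve the chain without being its subunits were read from fixed lists. The shares of all genes to set beside their counts are 9% called lower and 9.95% higher with passage in KO, and 4.37% lower and 6.22% higher with passage in WT. Without late KO replicates 1 and 2, Myc was called with passage in KO and 0 other genes of these lists were. With passage in KO, 11 of 47 assembly factors were called lower and 0 higher, with a median of -0.15, and between 3 and 12 were called lower when 1 array was left out. They include Timmdc1, an assembly factor of complex I, at -0.77 (limma adjusted p = 0.005), and Uqcc2, of complex III, at -0.50 (limma adjusted p = 0.041). Coa5, of complex IV, was called at -0.50 and Tmem126a, of complex I, at -0.46. In WT 2 of 47 were called lower, Timmdc1 at -0.76 and Cmc2, of complex IV, at -0.31 (limma adjusted p = 0.0094 and 0.024). Of 16 genes of the citric acid cycle and pyruvate dehydrogenase, 4 were called lower in KO (2 to 4 with 1 array left out). They were the entry enzyme citrate synthase (Cs) at -0.41, Mdh2 at -0.47, Ogdh at -0.48 and Dlst at -0.30. In WT 1 of 16 was called, Dlat, a subunit of pyruvate dehydrogenase, which was higher at 0.46. Of 7 carriers and porins, 2 were called lower in KO (0 to 2 with 1 array left out), the ADP and ATP exchangers Slc25a4 at -0.32 and Slc25a5 at -0.38, and 0 in WT. A list of 12 uncoupling, antioxidant and other redox genes had 3 called lower in KO (1 to 3 with 1 array left out), none of which is an uncoupling or antioxidant gene. They were Etfa and Etfb, the electron transfer flavoprotein that feeds ubiquinone, at -0.49 and -0.70, and Aox1, an aldehyde oxidase, at -0.75. Sod2, Prdx3, Prdx5, Txn2, Txnrd2, Gpx4, Ucp2 and Ucp3 had values between -0.37 and 0.30 and were not called. Between late KO and late WT, Aox1 was called at -0.75 and 0 genes of the assembly factor, citric acid cycle or carrier lists were called.

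**Figure D5:**
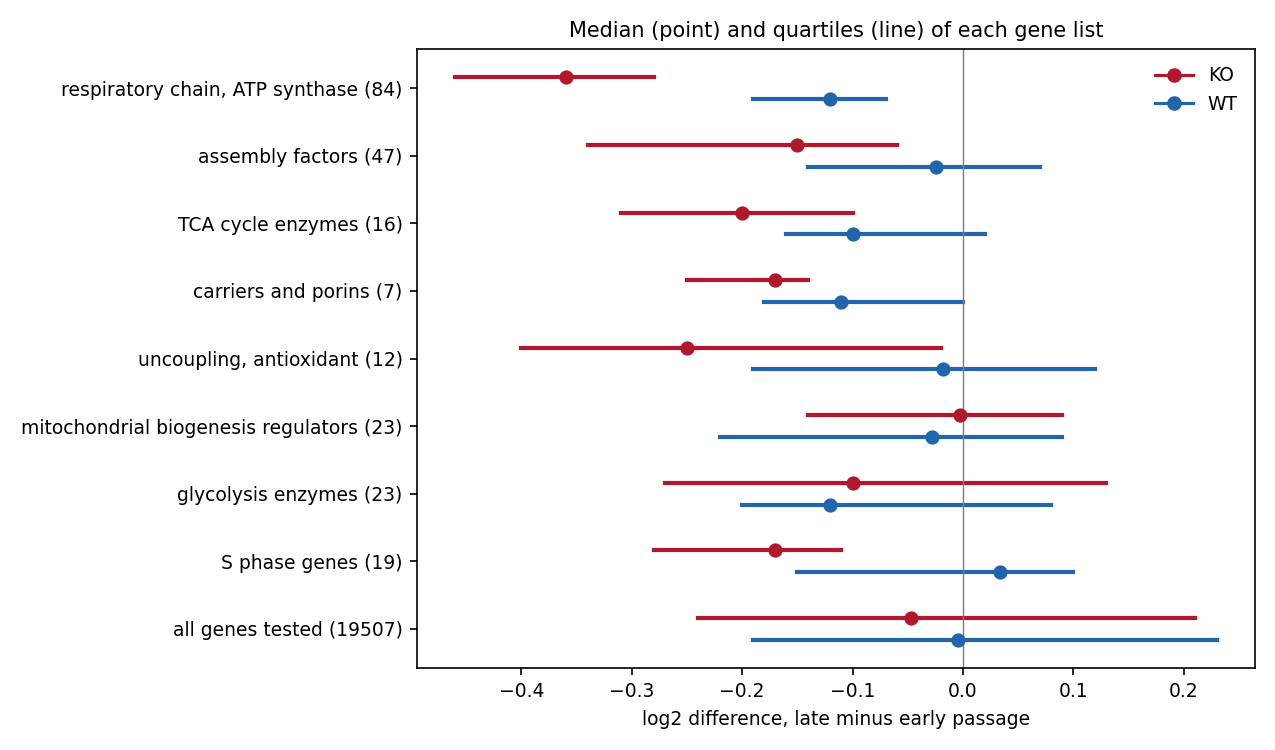
Median (point) and quartiles (line) of the late minus early difference on the log2 scale (x axis) for each gene list (y axis, genes measured in brackets), in KO (red, upper) and WT (blue, lower). The respiratory chain list has medians of -0.36 in KO and -0.12 in WT, and all genes tested have -0.047 and -0.0043.

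Among 23 regulators of mitochondrial gene expression, 2 were called higher and 2 lower with passage in KO, and 1 higher and 2 lower in WT, with list medians of -0.0028 and -0.028. Esrra, the receptor ERR alpha that acts with PGC-1 coactivators on many of these subunit genes, had levels of 1.86, 1.91 and 1.85 on late KO arrays, 2.51, 2.32 and 2.21 on early KO arrays, 2.24, 2.24 and 2.46 on late WT arrays and 2.32, 2.31 and 2.29 on early WT arrays. The late KO arrays lay below the other 9, with a difference of -0.47 ± 0.095 with passage in KO, 0.00 ± 0.095 with passage in WT and -0.44 ± 0.095 between late KO and late WT (limma adjusted p = 0.0088, 0.98 and 0.024). Ppargc1a, which encodes the coactivator PGC-1 alpha, had levels of -5.23, -5.27 and -5.35 on late KO arrays and -4.39, -4.17 and -4.19 on early KO arrays. Late WT arrays were at -5.80, -5.96 and -4.62 and early WT arrays at -4.48, -4.50 and -5.20, so the passages overlapped only in WT. Its difference was -1.03 ± 0.31 in KO and -0.74 ± 0.31 in WT (limma adjusted p = 0.044 and 0.16). Nrf1, Gabpa and Tfam, the last a factor for mitochondrial DNA, were at 0.04, -0.01 and 0.00 with passage in KO, and none was called in any comparison. Myc was called higher with passage in both genotypes, at 0.94 in KO and 0.95 in WT, and Hif1a was called higher with passage in KO, at 0.55 (limma adjusted p = 0.041), and in late KO against late WT, at 0.83 (limma adjusted p = 0.018). Ppard at -0.57 and Tfb1m, a factor of mitochondrial transcription and ribosome assembly, at -0.49 were called lower with passage in WT. Ppargc1b and Perm1 were not measured above the filter.

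Among 23 genes of glycolysis, with a glucose transporter and the pyruvate dehydrogenase kinases, 1 was called higher and 2 lower with passage in KO. In WT 2 were called higher and 0 lower. The shares called, 13% in KO and 8.7% in WT, were below the 18.9% and 10.6% of all genes. Hk2, a hexokinase that starts the pathway, was called higher in both, at 0.88 in KO and 0.97 in WT. Pdk4, a pyruvate dehydrogenase kinase and not a glycolysis enzyme, was called higher in WT at 0.69. Eno3, the muscle enolase, and Aldoc, an aldolase, were called lower in KO at -1.75 and -0.92, and Eno3 also in late KO against late WT, at -1.43. Of 19 S phase genes, 3 were called lower with passage in KO (Ccne1 at -0.58, Rrm1 at -0.42 and Rrm2 at -0.71) and 0 in WT. These lists had medians of -0.10 and -0.17 in KO, against -0.36 for the respiratory chain members. For the passage response of KO against that of WT, the S phase genes had a median of -0.25 with 16 of 19 values negative, beside -0.23 for the members, and glycolysis genes had -0.077.

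For 23 members more than 1 probe was kept, and the brightest stood for the gene. The probes disagreed in sign with passage in KO for 1 member, Ndufb11, with passage in WT for Ndufb6, Cycs, Uqcrb, Sdhc and Atp5c1, between late KO and late WT for Ndufv3, Ndufb5 and Ndufa5, and between early KO and early WT for Ndufv3, Cycs, Ndufb11, Cox7c and Ndufa5. For the difference between the passage responses of KO and WT, the probes disagreed in sign for Ndufv3 and Ndufb11. Ndufb11 was not called with passage in KO, at -0.19 (limma adjusted p = 0.22).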

How the data were processed

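Per the file headers, the deposited scanner files of the authors hold the intensity of each spot after background subtraction and detrending by Agilent Feature Extraction, version 11.5.1.1, while the submitters' processing notes name version 10.7.3.1. The authors' deposited value table holds log2 values of 22887 probes and served as an alternative. From its values, it is scaled per array and centred per probe, and its steps are not given in the sources used here. Scanner flags marked outlier spots and probes well above background.

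Outlier spots were left out, repeated spots averaged, and log2 intensities taken relative to the 75th percentile of all spots that are not controls. A probe was kept where all 3 arrays of some group had it well above background (24466, of which 107 were dropped for outliers), and the brightest kept probe stood for a gene. Of 26731 probes with a RefSeq mRNA accession, 26468 matched a gene on GRCm38.p6. The array design names an older assembly, so its probe coordinates were not used. Differences were fitted with limma 3.58.1 in R 4.3.3, with 4 group means, 8 residual and 2.22 prior degrees of freedom, and Benjamini-Hochberg adjustment over 19507 genes. The fit was tested on simulated data.

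Members and lists were chosen with earlier results of these data known. The text names members called in a comparison, the extremes of each complex, isoform families, complex II, cytochromes c and c1, members with discordant probes, and at most 4 called genes per list and direction with the main regulators of biogenesis, with 2 or more examples standing for longer groups. Values of 1 member are not reported here. Deviations of same-numbered arrays correlated most in the WT passage comparison (r of 0.14 to 0.28). In the others r was -0.09 to 0.16, and the ranges overlap. Alternatives were other normalizations, background corrections, filters, probe summaries, fits and sets of arrays. Replicates are cultures by the labels, and where cultures share a source, p-values measure only the spread between arrays.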

Additional observations from a re-analysis of the deposited data

Results flagged for a closer look

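The median KO minus WT difference over all members had opposite signs at the 2 passages on every slide. Over all members, the median difference at late passage was -0.18 on slide 1, -0.13 on slide 2 and -0.094 on slide 3. At early passage it was 0.25, 0.013 and 0.045 on the same slides. For complex I alone, the medians were -0.14, -0.12 and -0.094 at late passage and 0.26, 0.017 and 0.093 at early passage. The other complexes did not show opposite signs on every slide. At early passage the medians of ATP synthase and complex II were -0.031 and -0.034 on slide 2. Those of complex III and complex IV were -0.0051 and -0.16 on slide 3. At late passage these medians were also negative on the same slides. In 15 of 84 members every slide was lower in KO at late passage and higher in KO at early passage, or 17.9%, against 3.16% of all genes, and 0 members showed the opposite order, against 2.94% of all genes. The medians over all genes were -0.025, -0.036 and 0.044 at late passage and 0.017, -0.014 and 0.043 at early passage, so that on slide 3 at early passage the median of all members was close to that of all genes. For these medians the difference between passages was not tested, and in the test by gene 0 of 84 members were called.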

How the results depend on the processing

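With passage in KO, where 49 members were called, the count was 28 under quantile normalization (median -0.22), 25 with no filter on dim probes, and between 16 and 57 when 1 array was left out (16 without late KO replicate 1, 18 without early KO replicate 1, 19 without late KO replicate 2, 23 without early KO replicate 2, 25 without late KO replicate 3). It was 0 without late KO replicates 1 and 2, where 1 late KO array is assumed to vary like the other groups. The median of -0.36 ran from -0.41 to -0.29 with 1 array left out. Of all genes, 17.2% were called under quantile normalization, 7.25% with no filter and 9.12% to 19.9% with 1 array left out, against 18.9% in the main fit. Between late KO and late WT, where 2 members were called, the count was 5 under quantile normalization, 10 in a fit of the compared groups only, 1 after centring on the median of kept genes, and 0 with no filter on dim probes or without late KO replicates 1 and 2. With 1 array left out it was 0 to 1 (1 without late WT replicate 1), and the median ran from -0.16 to -0.12. Of the 10 members called in the fit of the compared groups only, 9 were lower and 1 was higher, beside 10.9% of all genes called. Of all genes, 9.18% were called under quantile normalization, 7.85% after centring and 1.92% with no filter, against 7.83% in the main fit. With 1 array left out 1.31% to 5.91% were. With passage in WT, where 5 were called, the count was 4 under quantile normalization (median -0.058, against -0.12), 3 with no filter, 1 in a fit of the compared groups only and 3 to 4 with 1 array left out (3 without early WT replicate 2 or late WT replicate 1, 2 or 3), with medians from -0.15 to -0.096. Of all genes, 10.3% were called with passage in WT under quantile normalization, 3.14% with no filter and 2.87% in the fit of the compared groups only. With 1 array left out that share was 5.98% to 12.6%, against 10.6% in the main fit. In the other comparisons the count of members was 0 under each alternative. With 1 array left out, their medians ran from 0.031 to 0.15 at early passage and from -0.28 to -0.15 for the difference of passage responses.

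The replicate number is also the slide, which carries 1 array of each group. With it as a replicate block, 51 members were called with passage in KO, 5 with passage in WT, 1 between late KO and late WT, and 0 in the other comparisons. Deviations of same-numbered arrays correlated at 0.28, 0.24 and 0.14 in the WT passage comparison. Between early KO and early WT they correlated at 0.06, 0.06 and 0.16, and in the remaining comparisons between -0.09 and 0.09.

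Background correction mattered most. The planned normexp could not be run on mean signals, which the files used here do not hold, and was run on median signals. With the background as deposited, where single spots reached 116000, the interquartile range of log2 values fell as low as 0.794 on an array, against 4.84 or more for the processed signals. Members called then numbered 0 in every comparison, with medians of -0.60 (early genotype), -0.33 (late genotype), 0.056 (WT passage), 0.32 (KO passage) and 0.27 (difference of responses). At most 0.0923% of all genes were called in a comparison. In all, 63 called genes changed sign with passage in KO, 44 of them members, with values of 0.00 for Acad9, 0.04 for Coa5 and Etfb, 0.05 for Ccne1, 0.08 for Cmc2, 0.09 for Ndufa4, 0.10 for Uqcr11, Rrm1 and Tmem126a, 0.13 for Esrra, 0.16 for Cox6b1, 0.17 for Ndufb7, 0.18 for Cox5b and Ogdh, 0.19 for Bcs1l and Cox19, 0.20 for Atp5k, Cycs and Uqcc2, 0.21 for Ndufb6, Ndufs8, Cox20 and Etfa, 0.22 for Ndufb8 and Cox8a, 0.23 for Uqcrq and Cox6c, 0.24 for Atp5o and Ndufb9, 0.25 for Ndufa11, Ndufa5 and Ndufa9, 0.26 for Ndufb10, Ndufs5, Sdhc and Uqcr10, 0.27 for Ndufb4, Mdh2 and Slc25a5, 0.28 for Ndufv3 and Dlst, 0.29 for Ndufs4, Ndufs6 and Cox5a, 0.30 for Ndufa12 and Ndufb2, 0.31 for Ndufa3, Ndufc1 and Sdhb, 0.32 for Cox7a2 and Cs, 0.33 for Ndufa2, 0.35 for Atp5h and Atp5mpl, 0.36 for Atp5e, Cox4i1 and Cox6a1, 0.37 for Atp5md and Ndufv2, 0.38 for Uqcrb, 0.42 for Slc25a4, 0.43 for Uqcrh and Cox7a2l. With the background of outlier spots replaced by the median of the array, a version chosen after that result was seen, 45 were called in KO, 5 in WT and 1 between late KO and late WT. The 75th percentile was first taken over averaged probes, which gave 50, 5 and 1, and was then taken over all spots after both had been seen. Of the 49 members called in KO, 15 were called under every alternative other than normexp with the background as deposited and the fit without late KO replicates 1 and 2. With 3 arrays per group, a p that misses the threshold does not show that levels were alike.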
